A study of Caenorhabditis elegans with 3 samples.

Results

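The comparison described here sets the messenger RNA of wild-type (N2) Caenorhabditis elegans larvae fed RNAi against ham-3 directly beside that of larvae fed RNAi against swsn-2.2, without passing through the gfp control. Its members are genes whose mean FPKM over both libraries reached 1 and whose FPKM was above 0 in each. FPKM is a fragment number scaled to transcript length and to the size of the library, and the values are those the authors deposited. Of 46135 genes listed, 26071 stood at 0 in both libraries and 14313 met the rule, 13443 of them protein coding. Another 3663 genes were above 0 in both but under the level filter, and 201 and 224 passed the filter while listed at 0 in the ham-3(RNAi) or swsn-2.2(RNAi) library alone. Just inside the filter, linc-58 was at 1.205 and 0.797 FPKM, and just outside it ZC196.4 was at 0.737 and 1.26. For each member the log2 ratio of FPKM + 1 was taken, positive where the gene was higher in the ham-3(RNAi) library.

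The study fed N2 larvae, synchronized at the L1 stage, for 36 hours with bacteria carrying a clone for gfp, a sequence worms lack, for ham-3 or for swsn-2.2, and collected whole animals as L4 larvae (larval stage 4). The series design gives a growth temperature of 25 °C and the growth protocol 35 °C, for all libraries alike. Each group is 1 library of poly(A)-enriched RNA from whole animals, so there are no replicates, no test was possible, and every difference below is a difference between these 2 libraries. In RNA from whole animals, fewer cells of a type and less RNA per cell cannot be told apart.

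SWI/SNF complexes are chromatin remodellers that use ATP to slide or evict nucleosomes, and so open or close regulatory DNA. ham-3 and swsn-2.2 are paralogs that encode the same kind of accessory subunit, related to the mammalian BAF60 proteins, and a complex is thought to hold either of them. In the worm these complexes act in cell fate choices, in the germ line and in body growth.

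The targeted genes were looked at first. Locus ZK1128.5, which is ham-3, lies on the plus strand of chromosome III (WBcel235, 10120781 to 10122925). The library labelled ham-3(RNAi), called below the ham-3-labelled library, held 23.1 FPKM of it, and the library labelled swsn-2.2(RNAi), called below the swsn-2.2 library, held 31.5. The gfp(RNAi) library, used only for this check, held 19.3 FPKM. The targeted gene was therefore lower than in the other RNAi library, with a log2 ratio of -0.43, but not lower than in the control, so every direction below belongs to a library whose target goes against its label. Locus C18E3.2, which is swsn-2.2, lies on the plus strand of chromosome I (4210979 to 4212667) and was at 37.8 FPKM in the ham-3-labelled library and was listed at 0 in the swsn-2.2 library. Its downstream neighbour C18E3.1, picked with its values known, was at 12.56 FPKM and likewise listed at 0. An exact 0 in these tables can be a failed estimate, so no fold is given for either gene, and the 0 does not by itself measure a knockdown.

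The other SWI/SNF subunit genes lay close together in both libraries. Besides ham-3, the member furthest from 0 was swsn-7, a subunit of the PBAF class, at 30.7 FPKM in the ham-3-labelled library and 26.7 in the swsn-2.2 library. The ATPase gene swsn-4 was at 40.3 and 41.6, and the core subunit genes swsn-1 and snfc-5 were at 18.6 and 17.8 and at 43.4 and 46.2. Of 11 subunit genes measured, 0 were 1.5-fold apart. Over all members 1.45% were higher and 3.4% lower, so nothing is read from the 0 in a list this small. The median log2 ratio of the 11 was -0.04, beside -0.05 over all members. That median changes sign when the ratios are centred or scaled to the upper quartile.

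Both libraries had an inferred depth of about 30780000 fragments, with 18998 genes above 0 FPKM in the ham-3-labelled library and 19042 in the swsn-2.2 library. The depth was read from the spacing of low FPKM values, where 59.0% of 2034 genes and 57.6% of 2021 genes gave a number of fragments within 0.1 of a whole number, so it is approximate. The same total and the same length offset of 160 bp came out for both libraries. Whether that total is each library's own depth was not tested, and the counting intervals below rest on it. Over all members the median log2 ratio was -0.05, with quartiles of -0.20 and 0.09, and 60.1% of members were below 0. At 1.5-fold, 208 members (1.45%) were higher in the ham-3-labelled library and 486 (3.4%) lower. At 2-fold, 40 (0.279%) were higher and 83 (0.58%) lower. The split at 1.5-fold was thus 29.97% higher, against 43.6% when scaled to the upper quartile and 46.7% when centred within classes of like transcript length. Most genes were alike, since 13619 members, or 95.15%, lay within 1.5-fold.

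**Figure D1:**
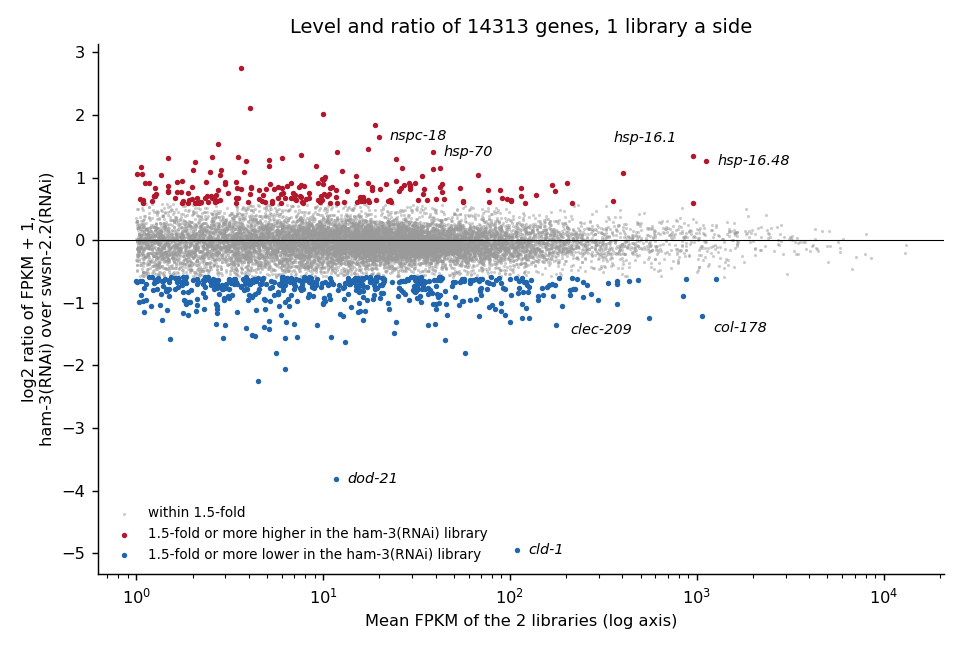
Mean FPKM of both libraries (log axis) against the log2 ratio of FPKM + 1 for all 14313 members, each point 1 gene. Red and blue points are at least 1.5-fold higher (208) or lower (486) in the ham-3-labelled library, and cld-1 and dod-21 lie far below all others.

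The widest gap among the members was at 2 neighbouring genes of a CUB-like cluster on chromosome IV, both much lower in the ham-3-labelled library. Of the cluster's 8 measured genes, 3 were past 1.5-fold lower and 0 higher (3.4% and 1.45% over all members), 4 were above 0, and the median was -0.10. The gene cld-1 (C32H11.9; chromosome IV, 12935011 to 12936271, minus strand) was at 5.91 FPKM there and 212 in the swsn-2.2 library, 36.0-fold apart. From inferred fragments, the 95% counting interval of its log2 FPKM ratio ran from -5.39 to -4.95. Its neighbour dod-21 (C32H11.10; 12936738 to 12937988, plus strand) was at 0.691 and 22.8 FPKM, with an interval of -5.73 to -4.41. The name dod marks genes found downstream of DAF-16, the FOXO transcription factor of the insulin pathway, and several of them encode secreted CUB-like proteins of the intestine induced by pathogens. The next measured gene, dod-24 (12940106 to 12941354, minus strand), was at 56.9 and 132 FPKM, a log2 ratio of -1.20. Such intervals cover counting error only, since PCR copies are not independent molecules.

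The low values had a sharp edge in the gene order. On the other side of cld-1 the nearest measured gene, srlf-6, was at 54.1 FPKM in the ham-3-labelled library and 47.03 in the swsn-2.2 library, and srlf-5 and srlf-4 had log2 ratios of 0.02 and 0.07. Beyond dod-24, F55G11.8 and dod-22 stood at -0.57 and -0.47, short of 1.5-fold. They were followed by a second run of 3 lower genes (12967445 to 12978343), made of F55G11.2 at -1.06, mbug-1 at -0.95 and dod-17 at -1.01. In FPKM, dod-17 was at 27.2 in the ham-3-labelled library and 55.9 in the swsn-2.2 library. The next measured gene, K10D11.2, was back at -0.29.

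**Figure D2:**
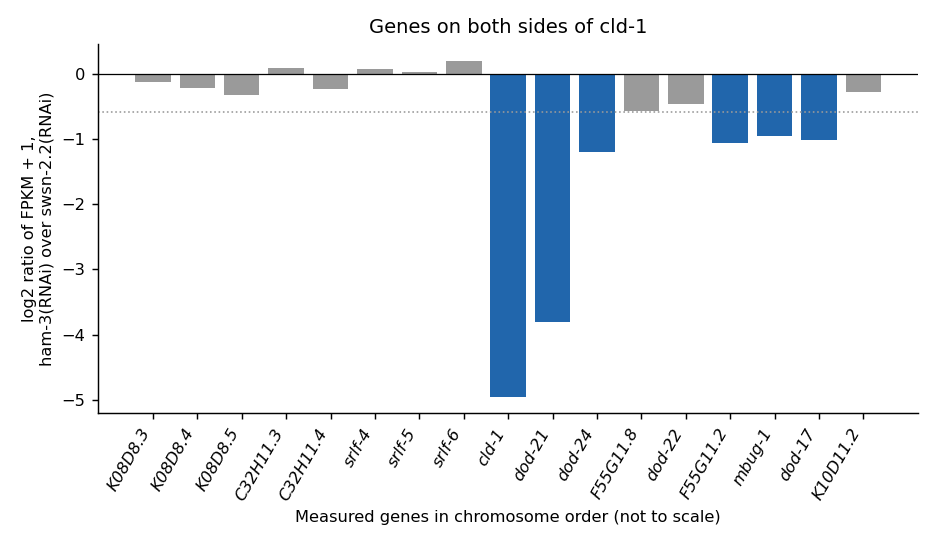
log2 ratio of FPKM + 1 for the measured genes on both sides of cld-1, in chromosome order and not to scale, blue where at least 1.5-fold lower in the ham-3-labelled library (dotted line). cld-1 at -4.95 and dod-21 at -3.81 form the trough, and srlf-6 at 0.20 marks its edge.

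In the other direction, several heat shock genes were higher in the ham-3-labelled library. The hsp-16 genes encode small chaperones that bind unfolding proteins and are made at high levels after heat. hsp-16.1 (T27E4.8; chromosome V, 9087293 to 9087782, minus strand) was at 1367 FPKM in the ham-3-labelled library and 540 in the swsn-2.2 library, 2.53-fold apart. Its divergent partner hsp-16.48 (9088131 to 9088617, plus strand) was at 1584 and 661 FPKM. The second pair, hsp-16.2 and hsp-16.41 (1804334 to 1805875), was at 218 and 118 and at 263 and 139. These 4 hsp-16 genes were all more than 1.5-fold higher in the ham-3-labelled library, beside 1.45% of all members, and their summed FPKM was 3432 against 1458, 2.35-fold apart. The annotation also holds hsp-16.11 and hsp-16.49, copies of hsp-16.1 and hsp-16.48 in the same block. Each was listed at 0 in 1 library and under 0.4 FPKM in the other, so reads of alike copies may be counted under 1 name, and the sum does not depend on that choice. RefSeq gives the hsp-16 name to a further pair on the same chromosome, outside the list used here, of which hsp-16.20 (F08H9.3) was at 2.21 and 1.016 FPKM and hsp-16.21 at 0.578 and 0.576, below the level filter.

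The inducible HSP70 genes had the same direction. hsp-70 (C12C8.1; chromosome I, 9320325 to 9322519, minus strand) was at 56.6 FPKM in the ham-3-labelled library and 20.8 in the swsn-2.2 library, with a counting interval of the log2 FPKM ratio of 1.35 to 1.54. F44E5.4, an HSP70-like gene, was at 545 and 259 FPKM. Its near-identical neighbour F44E5.5 was at 4.19 and 1.78, and reads could be split unevenly between that pair. These 3 were the members past 1.5-fold among 17 HSP70, HSP90 and co-chaperone genes (1.45% over all members), with 0 lower and a median of 0.19. The ER chaperone gene hsp-4 was at 411 and 318 FPKM and the disaggregase subunit gene hsp-110 at 192 and 140, both within 1.5-fold.

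Among 7 other small heat shock genes the median was 0.14. hsp-12.3 was at 25.9 FPKM in the ham-3-labelled library and 14.3 in the swsn-2.2 library, and hsp-43 was in the other direction at 50.7 and 65.1. Stress genes of the DAF-16 list had a median of 0.28 over 11 members of 18 genes listed, with 8 above 0. The genes sod-3 and sod-2 did not enter, because each was listed at 0 in 1 library. Among the 11 members, the metallothionein gene mtl-1 was at 14.7 and 8.69 FPKM, and the malate synthase and isocitrate lyase gene icl-1 at 600.2 and 446. The ferritin gene ftn-1, which encodes an iron store of the intestine, was at 32.7 and 16.5 FPKM, while ftn-2 was at 373 and 466. The part of growth temperature in these values was not tested, because the labels give the same conflicting temperatures for both libraries.

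**Figure D3:**
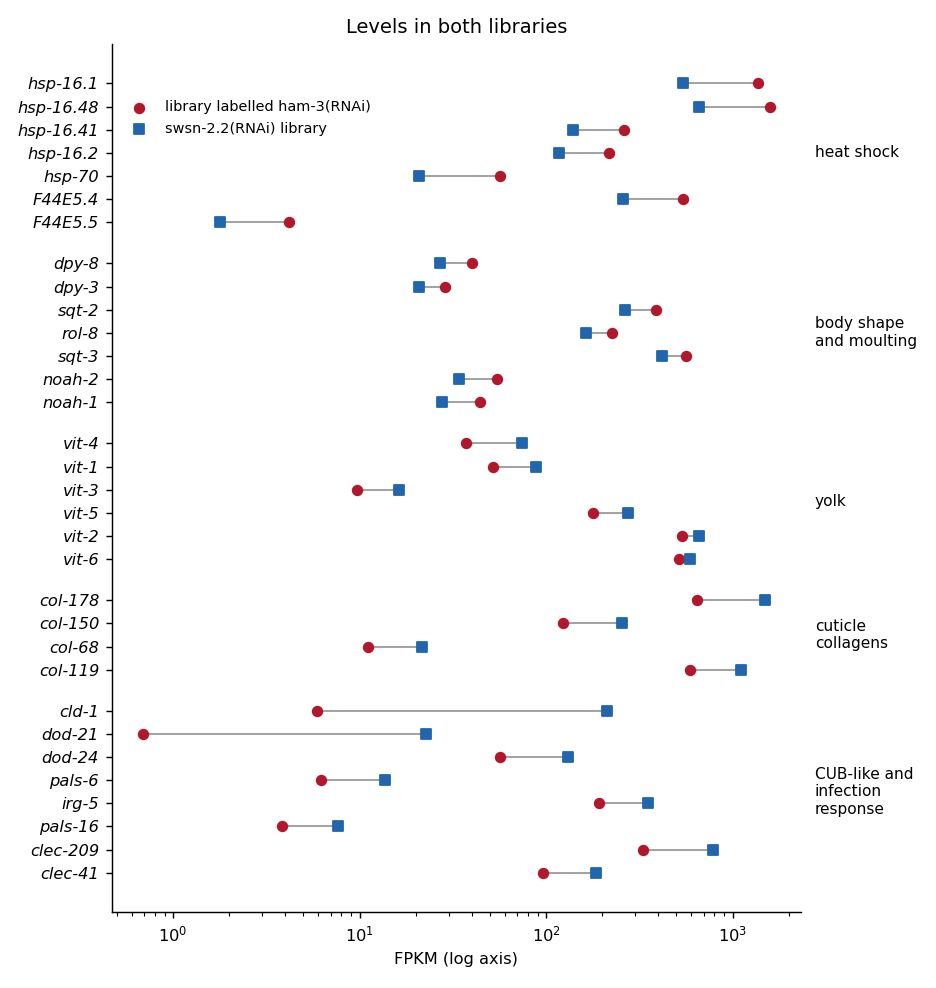
FPKM (log axis) of named genes in the ham-3-labelled library (red circles) and the swsn-2.2 library (blue squares), grouped by role. The heat shock, body shape and moulting genes shown are higher in the ham-3-labelled library, as hsp-16.1 at 1367 against 540, and the yolk, col collagen, CUB-like, infection response and lectin genes shown are lower, as vit-4 at 37.2 against 74.1.

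The yolk protein genes were lower in the ham-3-labelled library. Vitellogenins are made in the intestine of the hermaphrodite from the end of larval life and are carried to oocytes. vit-4 was at 37.2 FPKM there and 74.1 in the swsn-2.2 library, vit-1 at 51.7 and 87.9, and vit-3 at 9.74 and 16.3. The most abundant of them lay closer together, vit-2 at 535 and 658 and vit-6 at 517 and 592. All 6 were below 0 and 4 were past 1.5-fold (3.4% over all members), with a median of -0.66, and their sum was 1329 against 1704 FPKM. The vit-3 and vit-4 genes are near-identical neighbours on chromosome X, so reads may be shared between them. The eggshell permeability barrier genes perm-2 and perm-4, another neighbouring pair, were at 119 and 221 and at 117 and 197 FPKM. The other 23 measured members of the eggshell and oocyte list were within 1.5-fold.

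The cuticle genes split by kind. The cuticle is rebuilt from collagens at each moult, and many of its genes are switched on and off at set times within each larval stage. Of 125 col genes, which encode the bulk of the cuticle collagens, 98 were below 0 and 27 above, 16 were past 1.5-fold lower and 0 higher, and the median was -0.23, beside 3.4% lower, 1.45% higher and -0.05 over all members. col-178 (C34F6.2; chromosome X, 11199455 to 11200467, plus strand) was at 643 FPKM in the ham-3-labelled library and 1493 in the swsn-2.2 library. col-150 was at 123 and 256, and col-119 at 592 and 1104. Summed over the 125 genes the FPKM was 65200 against 76934, 1.18-fold apart. Centred on genes of like transcript length the median was -0.14, with 9 genes past 1.5-fold lower.

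The collagens named for body shape lay in the opposite direction, though short of 1.5-fold. All 6 annular furrow collagens, which pattern the ridges of the cuticle, were above 0, with a median of 0.24. dpy-8 was at 40.2 FPKM in the ham-3-labelled library and 27.1 in the swsn-2.2 library, and dpy-3 at 28.7 and 20.7. Of 13 other body shape collagens 12 were above 0, with a median of 0.22. sqt-2 was at 389 and 266 FPKM, rol-8 at 226 and 164, and sqt-3 at 566 and 421.

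Moulting genes were mostly higher in the same library, with 17 of 21 above 0, 3 past 1.5-fold (1.45% over all members), 0 lower and a median of 0.23. Centred within length classes, 2 were past 1.5-fold and the median was 0.18. Among genes with 1 transcript only the median was 0.09. The apical matrix genes noah-2 and noah-1 were at 54.7 and 34.1 and at 44.2 and 27.8 FPKM, and the protease inhibitor gene mlt-11 at 18.6 and 11.9. In the other direction, mlt-7 (ZK430.8; chromosome II, 4393007 to 4404850, plus strand), a peroxidase that crosslinks cuticle collagen, was at 34.6 in the ham-3-labelled library and 71.9 in the swsn-2.2 library. mlt-7 was counted in the collagen processing list, not among the moulting genes above, and its counting interval was -1.13 to -0.99. The secreted ADAMTS protease gene adt-2, which acts in cuticle structure and body size, was at 21.5 and 41.8 FPKM. Of 28 astacin protease genes 23 were below 0, 4 past 1.5-fold lower (2 when centred within length classes) and 1 higher. The shares over all members were 3.4% lower and 1.45% higher. nas-20 was at 19.04 and 34.5. The hedgehog-related ligands, secreted proteins made largely by the skin, had a median of -0.13 over 36 members, with wrt-8 at 3.86 and 8.67 FPKM and grl-7 at 111 and 69.4. Their patched-related counterparts had a median of 0.12 over 24 members, with ptc-3 at 51.9 and 34.8. Centred within length classes these medians were -0.02 and 0.06.

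**Figure D4:**
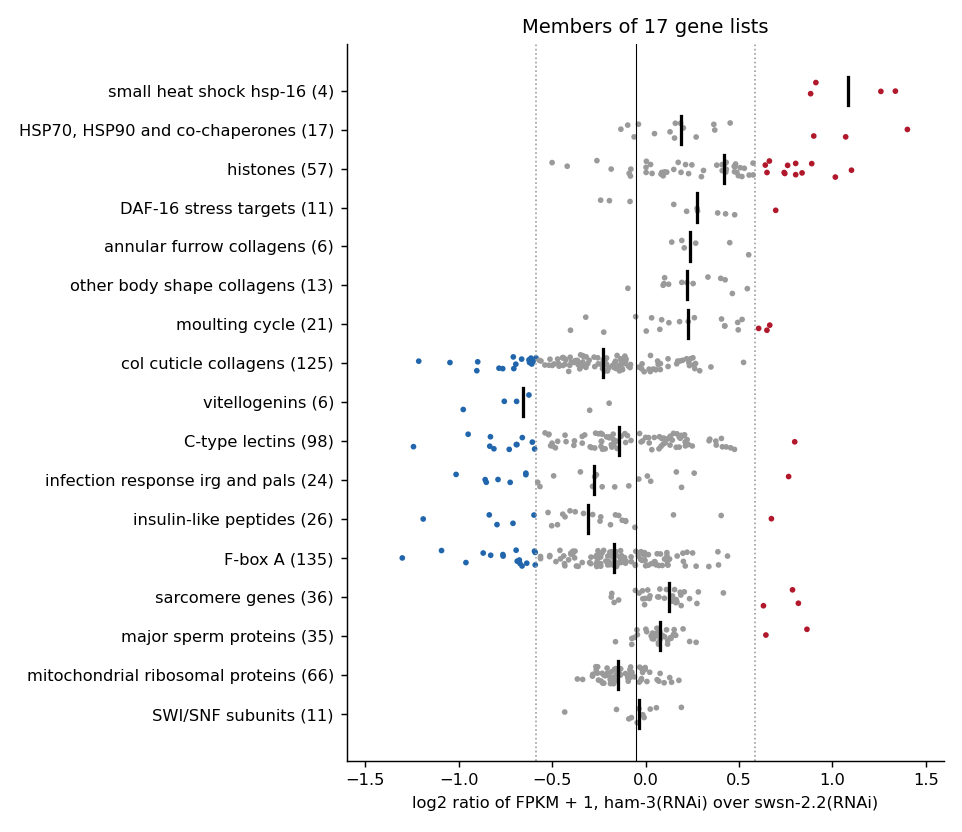
log2 ratio of FPKM + 1 for the members of 17 gene lists, each point 1 gene, with the number of members in brackets, the list's median as a thick bar, the median of all members (-0.05) as a thin line and 1.5-fold as dotted lines. The 4 hsp-16 genes of the list all lie beyond the upper dotted line, and the col collagens, insulin-like peptides and F-box A genes lie mostly below the line of all members.

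Lists tied to the response to microbes did not share 1 direction, and their counts stand beside 3.4% lower and 1.45% higher over all members. Of 24 irg and pals genes, which are induced by infection, 7 were past 1.5-fold lower and 1 higher, with a median of -0.28, or 5 lower and -0.24 when centred within length classes. irg-5 was at 193 FPKM in the ham-3-labelled library and 351 in the swsn-2.2 library, irg-8 at 152 and 264 and pals-6 at 6.24 and 13.6, while irg-2 was at 54.6 and 31.7. Of 98 C-type lectin genes, whose products bind sugars, 11 were lower and 1 higher, with a median of -0.14, or 8 lower and -0.05 when centred within length classes. clec-209 (Y19D10A.9; chromosome V, 2351676 to 2352932, plus strand) was at 331 and 785 FPKM and clec-41 at 95.9 and 186. The lysozyme gene lys-2 was at 336 and 531. Of 42 caenacins and other antimicrobial peptides, 3 were higher and 1 lower, with a median of -0.02 that was above 0 when centred on the median member. Among them, cnc-2, a caenacin of the epidermis, was at 222 and 128 and cnc-8 at 258 and 413.

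Insulin-like peptides, the ligands of the DAF-2 receptor, were mostly below 0. Of 26 measured, 23 were below 0, 5 past 1.5-fold lower and 1 higher, with a median of -0.31, beside 3.4% lower and 1.45% higher over all members. daf-28 was at 4.48 FPKM in the ham-3-labelled library and 7.96 in the swsn-2.2 library, ins-33 at 5.28 and 9.90, and ins-22 in the other direction at 4.41 and 2.39. Most of these genes are short and weakly expressed, and centred within length classes their median was -0.18, with 3 lower. The receptor pathway itself had 0 of 11 genes past 1.5-fold. Genes named dod, dct or dao after screens downstream of that pathway held 5 lower and 1 higher among 24, with dod-19 at 172 and 323 FPKM and dod-3 at 147 and 81.5. The pair pud-1.1 and pud-2.1, named as proteins up in daf-2 mutants, were at 12.2 and 35.6 and at 7.15 and 17.5 FPKM.

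Metabolic genes past 1.5-fold were found in both directions. Of 60 acyl-CoA dehydrogenase and beta-oxidation genes, 2 were past 1.5-fold higher and 4 lower, with a median of 0.04. The shares over all members were 1.45% higher and 3.4% lower. hacd-1, a hydroxyacyl-CoA dehydrogenase gene, was at 27.7 FPKM in the ham-3-labelled library and 64.7 in the swsn-2.2 library. acdh-1, an acyl-CoA dehydrogenase gene of the propionate shunt that responds to vitamin B12, was at 202 and 390. The remaining lower ones, ech-9 and ech-7, had log2 ratios of -1.11 and -0.87. The higher ones were both carnitine palmitoyltransferase genes, cpt-5 at 13.1 and 5.22 FPKM and cpt-4, picked with its values known, at 44.7 and 24.9. The elongase gene elo-5, needed for branched-chain fatty acids, was at 164 and 283, the one gene past 1.5-fold among 16 desaturases and elongases, whose median was -0.10. far-3, a secreted fatty acid and retinol binding protein gene, was at 53.6 and 23.9 FPKM, the one gene past 1.5-fold in a list of 15 with a median of -0.14. Outside these lists, thn-2, a thaumatin-like gene, was at 90.7 and 43.5.

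Detoxification lists held members past 1.5-fold in both directions, with 3 higher and 2 lower of 38 glutathione S-transferases, 4 and 2 of 55 UDP-glucuronosyltransferases and 2 and 1 of 50 cytochrome P450 genes. Over all members 1.45% were higher and 3.4% lower, and nothing is read from counts this small. The ion pump gene catp-3 was at 52.8 FPKM in the ham-3-labelled library and 114.1 in the swsn-2.2 library, the ammonium transporter gene amt-1 at 3.51 and 10.4, and gst-38, a glutathione S-transferase gene, at 22.1 and 57.3. The neighbours ugt-43 and ugt-44, which encode UDP-glucuronosyltransferases, were at 4.81 and 13.8 and at 77.0 and 156. In the other direction, gst-14 was at 2.13 and 0.822, ugt-33 at 7.94 and 4.33 and the cytochrome P450 gene cyp-33A1 at 113 and 64.3. The cathepsin B-like genes also divided, with cpr-3 at 59.1 and 120 FPKM and cpr-1 at 260 and 171. The gene tag-38, which RefSeq calls spl-2, a sphingosine-phosphate lyase family name, was at 7.33 and 18.3.

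Histone genes were higher in the ham-3-labelled library. Of 57 measured, 50 were above 0, 12 past 1.5-fold and 0 lower, with a median of 0.42, or 0.54 with 24 past 1.5-fold when centred within length classes. Over all members 1.45% were higher and 3.4% lower, or 2.05% and 2.34% when so centred. his-53 was at 17.6 FPKM in the ham-3-labelled library and 7.68 in the swsn-2.2 library, his-52 at 38.4 and 20.3, and his-7 at 97.2 and 55.2. The neighbours his-50, his-49, his-51 and his-52 on chromosome V (8847393 to 8850835) were all past 1.5-fold. Variant histones, named after their values were seen, lay near 0. The H3.3 genes his-71 and his-72 were at 171 and 168 and at 287 and 270 FPKM, and the H2A.Z gene htz-1 at 170 and 160. Copies of a core histone gene are near-identical, so single values are uncertain, and the sum over all 57 was 3387 against 3005 FPKM.

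Messengers of replication-dependent histones end in a stem-loop and largely lack a poly(A) tail, and the RNA here was poly(A)-enriched. Short non-coding RNAs also had many genes past 1.5-fold. Of 79 members annotated as ncRNA, 18 were higher in the ham-3-labelled library and 4 lower, and of 42 snoRNAs, which guide RNA modification, 10 were higher and 10 lower. Over all members 1.45% were higher and 3.4% lower. Of 9 rRNA genes 2 were higher and 0 lower, with a median of 0.31, and rrn-1.2 was at 9.16 FPKM and 4.37. At a mean FPKM of at least 5, the 5 genes without a name and with the largest ratios were all short non-coding RNAs, led by F43D9.8 at 16.5 and 3.33 and F54E7.10 at 30.1 and 7.68. These 5 genes are 130 to 150 bp long, below the length offset of 160 bp, and have no counting interval. Their FPKM may rest on few fragments, and the counts of ncRNA and snoRNA genes carry the same limit where genes are that short. The part of untailed RNA that came through the enrichment in the histone values was not tested.

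Transcript length moved with the ratio. Among protein-coding members, the median log2 ratio went from -0.15 for 200 genes of up to 300 bp through -0.06 for 3495 genes of 1200 to 1800 bp to 0.16 for 170 genes over 6000 bp. At 1.5-fold, 25 of the shortest class were lower in the ham-3-labelled library and 14 higher, against 0 and 6 of the longest. Lists of short genes are read with this in view. The mitochondrial ribosomal proteins had a median of -0.15 over 66 genes, and the FMRFamide-like neuropeptides -0.13 over 30, with 27 below 0. Centred within length classes these medians were -0.04 and -0.00.

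**Figure D5:**
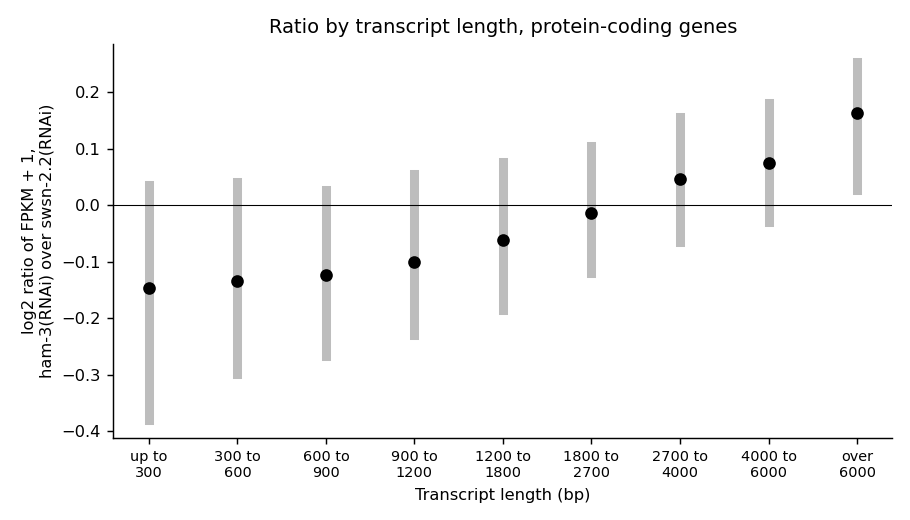
Median log2 ratio of FPKM + 1 (points) with quartiles (bars) for protein-coding members in 9 classes of transcript length. The medians go from -0.15 in the shortest class to 0.16 in the longest.

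Muscle genes, many of them long, were among the higher ones. Of the myosins of the pharynx, myo-1 was at 37.5 and 20.9 FPKM and myo-2 at 32.4 and 18.3, and the giant sarcomere protein gene unc-89 at 27.3 and 17.3. Of 36 sarcomere genes these 3 were past 1.5-fold, 0 were lower and the median was 0.13, beside 1.45% higher and 3.4% lower over all members. The other pharynx markers did not move with the myosins, with tnc-2 at 35.9 and 40.5, pha-4 at 15.2 and 16.2 and ceh-22 at 2.02 and 1.97. Centred within length classes, myo-1 was still at 0.72 and myo-2 at 0.68. Body wall muscle markers had a median of 0.28 over 5 genes, intestine markers -0.15 over 6, and hypodermis and seam markers -0.14 over 7. Centred within length classes these medians were 0.19, -0.10 and -0.03. Somatic gonad markers had a median of -0.27 over 3 genes, all below 0, or -0.22 when so centred. Neuron markers were at -0.06 over 7 genes and coelomocyte markers at 0.08 over 3. Germline markers were at 0.02 over 6 genes, sperm markers at 0.12 over 6 and oocyte and eggshell markers at 0.04 over 5. Centred within length classes these were 0.03, 0.17 and 0.04. Summed FPKM was 684 and 667 for the germline markers, 541 and 496 for the sperm markers and 1791 and 1889 for the intestine markers.

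Germline and sperm lists had small median log2 ratios, which were larger for sperm lists when centred within length classes. Of 35 major sperm protein genes 29 were above 0 with a median of 0.08, and 2 were past 1.5-fold, msp-37 at 8.60 and 4.28 FPKM and msp-74 at 23.6 and 14.7. These genes are near-identical, and their sum was 20626 against 19412 FPKM. Centred within length classes the msp median was 0.20, and that of 56 other sperm genes was 0.13, against 0.06 without centring. Of 22 P granule and germline Argonaute genes 19 were above 0, none past 1.5-fold, with a median of 0.11 and the sperm Argonaute gene alg-3 at 41.6 and 28.8. The nematode-specific peptide families held both directions, with 7 higher and 8 lower of 45, beside 1.45% higher and 3.4% lower over all members. nspc-18 was at 30.7 and 9.08 and nspc-17 at 58.6 and 25.7, while nspe-2 was at 1.67 and 6.62.

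In the nervous system lists, tbh-1 had the log2 ratio furthest from 0, at -1.54. It encodes tyramine beta-hydroxylase, which makes octopamine from tyramine, and was at 5.14 FPKM in the ham-3-labelled library and 16.8 in the swsn-2.2 library. tdc-1, the enzyme of the step before, was at 22.6 and 23.9, and the octopamine receptor gene ser-3 at 7.89 and 9.60. Of 28 synaptic and transmitter genes, 13 serotonin and HSN genes and 18 vulval induction genes, 0 were past 1.5-fold. Of 74 nlp neuropeptide genes, 1 was past 1.5-fold higher and 3 lower. Over all members 1.45% were higher and 3.4% lower, and nothing is read from counts this small. Among transcription factors, nhr-67, a nuclear receptor of the anchor cell, was at 3.35 and 1.72 FPKM, and ceh-41 at 3.03 and 5.28. F-box A proteins, a large and fast-evolving family of presumed ubiquitin ligase adaptors, had 16 of 135 genes lower and 0 higher, with a median of -0.17, beside 3.4% lower and 1.45% higher over all members. fbxa-158 was at 3.22 and 9.41 FPKM, and centred within length classes 10 were lower and the median was -0.09.

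A minority of the genes that differed lay side by side. Neighbours here are members that follow each other in the gene order, so genes that were not measured can lie between them. The paired his-53 and his-17, for example, end at 8854053 and start at 8897582. Of the 486 lower genes 105 (21.6%) were next to another lower gene, and of the 208 higher genes 33 (15.9%) were next to another higher one. Over all members 3.4% were lower and 1.45% higher. Those are shares of single genes. A gene has a neighbour on each side, so the share of genes with such a neighbour is larger, and it was not computed. Runs of at least 3 numbered 12 among lower genes and 2 among higher genes. On chromosome II, F01D5.1, F01D5.2, F01D5.3 and F01D5.5 (13996958 to 14002300) were all lower, with F01D5.1 at 56.0 FPKM in the ham-3-labelled library and 124 in the swsn-2.2 library. On chromosome V, col-149, col-150 and B0024.4 (10291701 to 10298985) formed another lower run, with B0024.4 at 25.1 and 90.5. The run of pud-2.1, pud-1.1, irld-53 and clec-209 (2329444 to 2352932) was also lower. The higher run besides the histones was F48C1.9, F48C1.11 and F55A12.6 on chromosome I (5332249 to 5340266), with F48C1.11 at 35.5 and 13.8. Neighbouring lower pairs included the innexin genes inx-8 and inx-9, which form gap junctions of the gonadal sheath, at 33.0 and 51.6 and at 11.96 and 19.7. Chromosome V held the highest shares among the nuclear chromosomes, with 2.35% of its 2894 members higher and 4.84% lower.

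Some genes had a high FPKM in 1 library and were listed at 0 in the other. At 10 FPKM or more elsewhere, 110 genes were listed at 0 in the ham-3-labelled library and 129 in the swsn-2.2 library, and their transcripts were listed at 0 as well. The snoRNA F54C9.12 was at 2652 FPKM in the ham-3-labelled library and listed at 0 in the other, as were F46H5.3 at 1151, the collagen gene col-166 at 713 and the ncRNA R106.6 at 578. The ncRNA C18H9.12 was at 652 in the swsn-2.2 library and listed at 0 in the ham-3-labelled library. F54C9.12, R106.6 and C18H9.12 are shorter than the length offset of 160 bp, where a high FPKM may rest on few fragments. Different short genes also had the same FPKM, as nspa-7 and K08D8.11, both at 85.1 in the ham-3-labelled library. The number of fragments behind these values was not tested. The list also held genes every cell uses, such as the ATP synthase subunit gene atp-5, picked with its values known, at 536 FPKM in the ham-3-labelled library and listed at 0 in the other. The zeros are therefore given as listed, and no fold is drawn from them.

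Shares of single transcripts were compared within genes. Among 3545 genes with several transcripts measured, the median difference in a transcript's share of its gene's FPKM was 3.47 percentage points, and 578 of 9131 transcripts differed by at least 20. For unc-68, the ryanodine receptor gene of muscle, the transcript K11C4.5a held 2.43% of the gene's FPKM in the ham-3-labelled library and 95.9% in the swsn-2.2 library. For exoc-8, an exocyst subunit gene, the transcript Y105E8B.2a.1 held 94.8% and 1.42%. The same was seen for T28A11.2b.1 at 94.9% and 2.82%, for a gly-4 transcript at 2.57% and 89.6%, and for an hrg-11.2 transcript at 1.65% and 87.9%. The summed FPKM of unc-68 was 20.3 and 14.96, and that of exoc-8 28.7 and 27.3. The division of reads among overlapping isoforms is an estimate, and its error is not given in the values used here.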

How the data were processed

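Poly(A)-enriched RNA of whole L4 larvae was sequenced as paired reads of 73 bp, per the labels' protocols. The gene and transcript FPKM values were deposited by the authors, who used Cufflinks and Cuffdiff per the submitters' processing notes. Versions, aligner and build were not given in the sources used here. Both gene tables held the same gfp values, so the libraries share a scale, and the number of unmapped columns was 0.

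Tables were joined on gene ID (Python 3.11.15, pandas 2.3.3, numpy 2.4.6, scipy 1.17.1, matplotlib 3.10.9). Ratios used a pseudocount of 1 FPKM, which understates the change of low genes. With 1 library per group no p-value was computed. Symbols came from the files, then from RefSeq; coordinates and lengths came from Ensembl release 115 (WBcel235), which matched 14112 members. Counting intervals (95%, exact conditional binomial, Clopper-Pearson) used inferred fragments of genes with 1 transcript. The library total and length offset behind these fragments were read from single-transcript genes of at least 500 bp and up to 0.3 FPKM. The intervals were computed for single-transcript members over 500 bp at any FPKM. The ratio step was tested on simulated data. Members and the 80 gene lists were chosen with earlier results of these data known. Named genes were the targeted genes and SWI/SNF subunits; at a mean FPKM of at least 5, the 15 largest and 15 smallest ratios with a gene name and 5 each without; the 5 furthest members of each list; the 5 highest genes listed at 0; runs of neighbours; and the 5 transcripts furthest apart in share. vit-6, cpt-4, the pharynx markers and the genes beside cld-1 were named outside these ranks. Other settings were other pseudocounts and filters, centring, upper-quartile scaling, summed transcripts and single-transcript genes; centring within 20 length classes and protein-coding genes alone were chosen after seeing the data.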

Additional observations from a re-analysis of the deposited data

How the results depend on the processing

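The count of genes past a fold depended on the pseudocount and on genes listed at 0. At 2-fold, 40 genes were higher in the library labelled for ham-3 and 83 lower. With a pseudocount of 0.1 FPKM these were 78 and 172, with 5 FPKM 14 and 29, and with genes listed at 0 in 1 library kept 264 and 284. At 1.5-fold, 208 genes were higher and 486 lower. The higher count was 334 with a pseudocount of 0.1 FPKM, 78 with 5 FPKM (209 lower), 432 with genes listed at 0 kept, and 127 at a mean FPKM of at least 5, where 23 genes were 2-fold higher. Every other setting left these counts within 1.5 times. Of 80 list medians, 30 reached 0 or had the other sign under at least 1 setting, all of them within 0.12 of 0 as reported. The SWI/SNF subunits were among the 10 that changed sign when centred, and 12 did so among genes with 1 transcript only. Of those that lay 0.1 or more from 0, collagen processing enzymes went to -0.0654 and sperm markers to -0.0075 among genes with 1 transcript only. The nlp neuropeptides went to 0.0113 when centred within length classes, and the serpentine chemoreceptors to 0 without the filter on low values. The cause was not tested. No paired analysis was possible because each group is 1 library. Without replicates, the spread between animals is unknown, and at 1 to 2 FPKM the interquartile range of the ratio was 0.36 against 0.24 at 20 to 100 FPKM.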

Other observations

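Several lists that bear on growth, cell division and development held 0 genes past 1.5-fold in either direction between the libraries. Over all members 1.45% were higher and 3.4% lower, and lists this small hold few such genes at those shares, so nothing is read from the 0. These were the DNA replication genes (30 measured), the DREAM and synMuv B repressors (13), the other chromatin remodellers (17), the cytosolic ribosomal proteins (81), the mitochondrial respiration genes (41), the heterochronic timing genes (11), the Wnt pathway (23), the TGF-beta body size pathway (14) and the feeding RNAi machinery (18). The chromatin remodellers outside SWI/SNF had 14 of 17 genes above 0 and a median log2 ratio of 0.11, with let-418, a Mi-2 ATPase gene, at 36.4 FPKM in the library labelled for ham-3 and 29.5 in the other, and pyp-1, a pyrophosphatase gene, at 241 and 190. Of 166 nuclear hormone receptor genes, 2 were past 1.5-fold higher and 3 lower, and of 57 MATH and BATH genes 0 were past it, though 45 were below 0. Of 40 serpentine chemoreceptor genes, the few of 1622 listed that were measured in whole animals, 4 were lower and 0 higher. These are values of 1 library a side, with no test.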
